A study of Solanum tuberosum with 10 samples.

Results

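The 284 ribosomal RNA (rRNA) features among the 40430 features of the expression table were described across 10 RNA-seq libraries of potato. They are all features whose label contains rRNA. By that label, 79 belonged to the small subunit class (SSU_rRNA_eukarya, hereafter SSU), 68 to the large subunit class (LSU_rRNA_eukarya, hereafter LSU), 61 to 5_8S_rRNA (5.8S) and 76 to 5S_rRNA (5S). The members were taken by label alone, whatever their level.

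The plants were in vitro potato (Solanum tuberosum), wild type, of the cultivar Desiree. Single-node explants of plantlets aged 4 w were laid on medium without growth regulators. The ultrasonicated group (US) was exposed for 20 min to ultrasound of 35 kHz (70 W), and the control group received none. The 5 times of sampling were 0 h, meaning right after the exposure, 24 h and 48 h, then 1 w, then 4 w of subculture, with 1 library for each treatment and time. The labels name leaf as the tissue throughout, whereas the methods describe explants up to 48 h and leaves, stems and roots of plantlets at 1 w and 4 w, so that time and kind of material cannot be told apart. Labels and methods also differ on whether each library stands for a single replicate or a pool. In either case no spread between replicates exists at any time.

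In plant cells the rRNAs of the cytoplasmic ribosome are made in the nucleolus as one long precursor, in which the SSU rRNA is followed by the 5.8S and then the LSU rRNA, and which is cut and modified with the help of small nucleolar RNAs. The 5S rRNA is transcribed apart from these by another RNA polymerase. Both kinds of gene lie in tandem arrays of near-identical copies, and mature rRNAs lack the poly(A) tail that oligo(dT) beads capture.

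The enrichment and the counting bear on every value below. The RNA was enriched with oligo(dT) beads, and the protocol also names a kit that removes rRNA, for long non-coding libraries, so a level here is what remained after enrichment and not the rRNA content of the tissue. Only uniquely aligned reads were counted, so reads that fitted several copies equally well were not counted, and the level of any one copy is uncertain. Library totals ranged from 33850938 reads (control 0 h) to 45899162 reads (control 24 h), and the limit that a count of 0 allows, set at 3 reads, was 0.0654 to 0.0886 RPM (reads per 1000000 reads of the library total). Ratios of 2 libraries are given with exact 95% intervals (Clopper-Pearson, conditional on the 2 counts), which cover counting error only. They treat reads as independent. Reads in features summed to 1.71 to 1.77 times the library total, so a fragment may be counted more than once and the intervals may be too narrow.

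Most rRNA features had no reads. Reads were found for 105 of the 284 (37.0%), against 71.6% of all features in the table, and for 46 (16.2%) in all 10 libraries, against 54.9% of all features. Of the 179 features without any read, 71 were 5S. By class, 45 of 79 SSU, 41 of 68 LSU, 14 of 61 5.8S and 5 of 76 5S features had reads. The SSU class held 73.6% of the 1378114 rRNA reads, the LSU class 23.0%, the 5.8S class 3.39% and the 5S class 0.00878%, which is 121 reads.

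The reads were also concentrated in few members of each class. A single feature, ENSRNA049462930 (SSU), held 25.3% of all rRNA reads, the 5 features with most reads held 59.2%, and 20 features held 96.0%. Grouped by gaps of at most 10 kb, the members formed 97 loci, and the 5 loci with most reads held 80.3%. The locus with most reads, on chromosome 0 (25217879 to 25231064) of the SolTub 3.0 build, held 38.1%. Chromosome 0 collects sequence that is not placed on a chromosome in that build. It held 71 members and 49.6% of the reads, and chromosome 3, with 68 members, held 25.9%. Chromosome 1 carried the most members, 72, of which 67 were 5S, and held 6.48% of the reads. Chromosomes 7 and 8 held 9 and 3 members without a read.

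**Figure D1:**
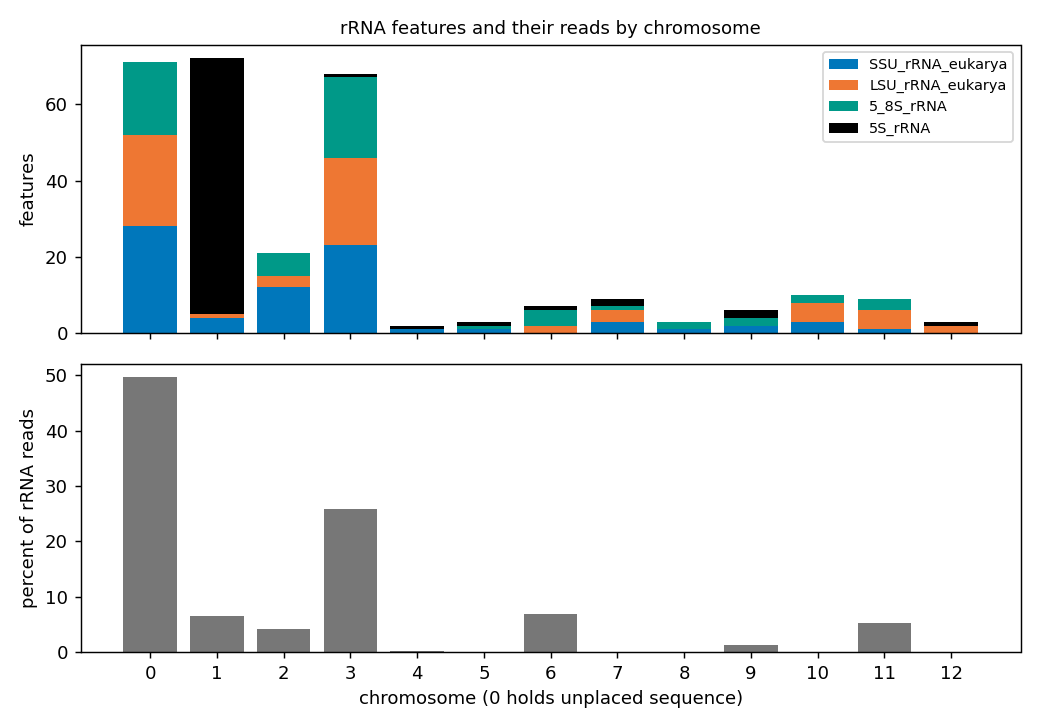
The upper bars count the rRNA features of each class on each chromosome, and the lower bars give the percent of the 1378114 rRNA reads on it. Chromosome 0 and chromosome 3 hold 49.6% and 25.9% of the reads, and the many 5S features of chromosome 1 add almost none.

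The annotation was searched for sets in the order of the precursor, and other orders were not counted. On one strand and within 5 kb, 9 sets of an SSU, a 5.8S and an LSU feature were found. Each was built around its own 5.8S feature, of 61 in the class, and gaps within a set reached 4585 bases. Of the 9 sets 3 had reads in all their parts and 1, on chromosome 7, had none. In 2 of the 3 sets the same SSU feature, ENSRNA049463898 on chromosome 3 (12428028 to 12429834, plus strand), was followed by a different 5.8S feature, ENSRNA049464469 (12430054 to 12430209) or PGSC0003DMG400039430 (12430089 to 12430718), which share 121 bases. The LSU feature after them was ENSRNA049464377 (12431088 to 12431365). Parts of a set differed widely in reads, with 13813 for the SSU, 5142 and 31397 for the 5.8S and 82836 for the LSU feature. Overlaps of this kind affected 19 of the 284 members, 18 of them with another member.

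The summed level of all rRNA features was higher in the US library than in its control at every time but 4 w, where it was lower. In the control libraries it was 3519, 2513, 2461, 1760 and 2435 RPM in order of time. In the US libraries it was 9361, 4397, 2996, 3783 and 1910 RPM. The US 0 h library was the highest of the 10 and the control 1 w library the lowest. The US to control ratios, again in order of time, were 2.66 (2.64 to 2.68), 1.75 (1.74 to 1.76), 1.22 (1.21 to 1.23), 2.15 (2.13 to 2.17) and 0.784 (0.777 to 0.792). With 1 library per group these ratios have no replicate check. The largest step within the controls, from 3519 RPM at 0 h to 2513 at 24 h, and the step from 9361 to 4397 RPM in the US libraries, give the scale of differences between libraries of one treatment.

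The SSU class, the RNA of the subunit that reads the mRNA, followed the same course. Its summed level in the controls was 2369, 1968, 1824, 1300 and 1791 RPM from 0 h to 4 w, and in the US libraries 7147, 3219, 2246, 2486 and 1494 RPM. The US to control ratios were 3.02, 1.64, 1.23, 1.91 and 0.834. The 2 treatments overlapped in range, because US 4 w lay below 4 of the 5 controls.

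The LSU class, the RNA that holds the peptidyl transferase centre, was at 699.6, 493.4, 502.7, 423.8 and 610.2 RPM in the controls and at 1992, 1039, 684.8, 1214 and 379.6 RPM in the US libraries, in order of time. The ratios were 2.85, 2.11, 1.36, 2.86 and 0.622. The ratio at 48 h rested on one feature, ENSRNA049454747, without which the log2 difference was 0.06 and not 0.45, and without which it was -0.23 and not -0.68 at 4 w.

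The 5.8S class, whose RNA pairs with the LSU rRNA in the ribosome, did not follow that course. Its summed level was 449.0, 52.3, 133.9, 35.7 and 33.8 RPM in the controls and 221.6, 138.9, 65.2, 83.2 and 36.4 RPM in the US libraries, from 0 h to 4 w. Of the class reads 67.2% fell on PGSC0003DMG400039430, a gene of 630 bases whose label is that of the overlapping ENSRNA049464469. The US library was lower than its control at 0 h (ratio 0.494, 0.480 to 0.507) and at 48 h (0.487, 0.465 to 0.510), and higher at 24 h (2.66, 2.53 to 2.79) and 1 w (2.33, 2.19 to 2.48). Without PGSC0003DMG400039430 the log2 difference was -5.10 at 0 h and not -1.02, 2.34 at 24 h and not 1.41, and -3.52 at 48 h and not -1.04. Control 0 h and control 48 h stood above the other controls. One feature, ENSRNA049463687, held 51.4% of the class in the control 0 h library. It had 7812 of the 15198 class reads there and 14 of the 8082 in US 0 h. The lower class sum of US at 0 h therefore rested on this feature. Per kb of annotated span the SSU class ranged over the libraries from 28.0 to 154 RPM per kb, the LSU class from 8.78 to 46.1 and the 5.8S class from 3.30 to 43.8.

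The 5S class was close to undetected. Its summed level was 1.83, 0.196, 0.578, 0 and 0.153 RPM in the controls and 0.110, 0.203, 0.0242, 0.197 and 0 RPM in the US libraries. The control 0 h library was the highest, and the 2 libraries without reads allow up to 0.0738 RPM (control 1 w) and 0.0760 RPM (US 4 w). The ratio of US to control at 0 h was 0.0599 (0.0158 to 0.161). Of the 67 features on chromosome 1, 61 lay in one array of 18.9 kb (52599262 to 52618120), and that array had 1 read in all libraries together. The reads fell on copies outside it. ENSRNA049456932 on chromosome 1 (50985484 to 50985600) had 57 reads, 41 of them in control 0 h and 15 in control 48 h, which left 1 read, in US 0 h. ENSRNA049453046 on chromosome 9 (17365111 to 17365227) had 35 reads and ENSRNA049456919 on chromosome 1 (51075603 to 51075719) had 25.

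**Figure D2:**
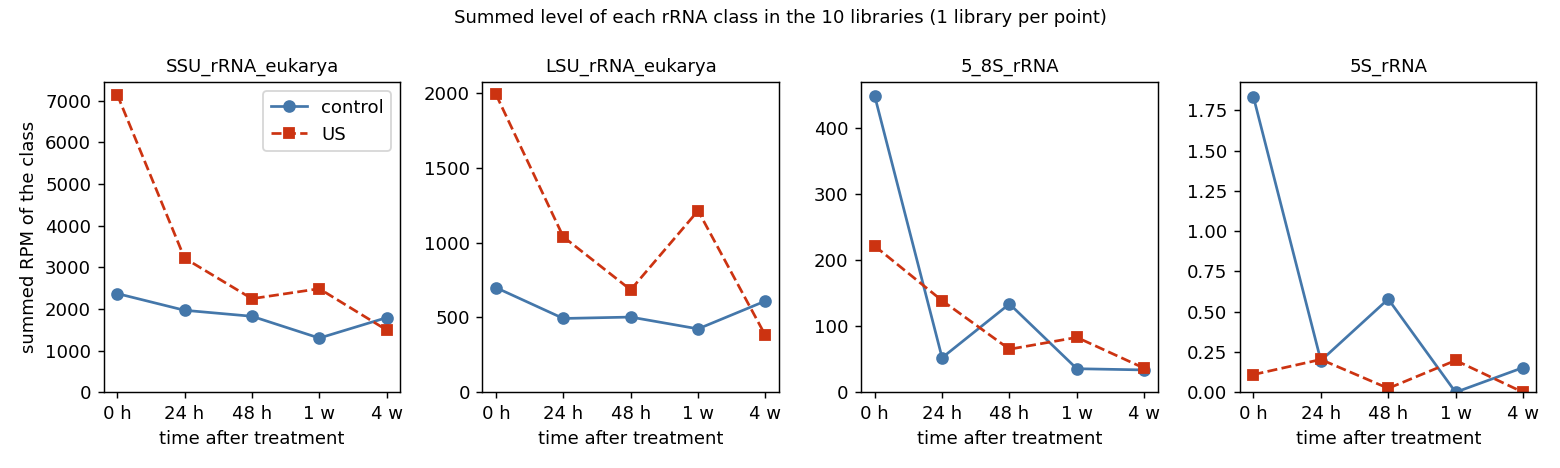
Each panel gives the summed RPM of one rRNA class against time, with circles for the control and squares for the US library of each time, and the times are evenly spaced and not to scale. SSU and LSU peak in US 0 h at 7147 and 1992 RPM, 5.8S and 5S in control 0 h at 449.0 and 1.83 RPM.

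Whether US moved single members over the whole course was tested with limma, using the 5 time points as blocks, on the features whose log2 RPM averaged 0 or more over the 10 libraries. Of the 284 members 32 passed this filter, 20 of them SSU, 10 LSU and 2 5.8S. None of the 32 passed at a limma adjusted p of 0.05, and neither did any of the 20494 features tested (0.0%). At an unadjusted p under 0.05 stood 15 of the 32 members, all higher in US, against 2.81% of all features. With voom weights on the recovered reads 16 of the 32 stood there, against 594 of the 20494 features, again with 0 past the adjusted threshold. The averaged US difference was above 0 for 30 of the 32, against 47.7% of all features, and its median was 0.63 on the log2 scale, against -0.01 for all. It was above 0 for 19 of 20 SSU, 10 of 10 LSU and 1 of 2 5.8S members. Leaving out one pair at a time left 23 (without 1 w) to 30 (without 48 h) of 32 above 0, against 46.5% and 50.1% of all features. The members at an unadjusted p under 0.05 numbered 7 (without 0 h) to 18 (without 4 w), against 342 and 328 of the 20494 features. Without 24 h they numbered 11, against 1587 features. With voom 26 of the 32 were above 0, against 50% of all features. Without the time block 3 stood at an unadjusted p under 0.05, against 51 of the 20494 features. The features share libraries and loci, so these counts are not independent observations.

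Among the tested members the smallest unadjusted p belonged to the LSU feature ENSRNA049464377 of the chromosome 3 set, with 278 bases of annotated span. Its level in the controls was 199, 145, 104, 68.6 and 52.8 RPM from 0 h to 4 w, and in the US libraries 658, 339, 241, 263 and 57.6 RPM. The US library was the higher one at each of the 5 times, while the ranges of the 2 treatments overlapped. Its averaged US difference over the 5 pairs was 1.24 ± 0.25 (log2, SE from the limma fit, limma unadjusted p = 0.000733, adjusted p = 1.00). That SE, like the others given with ± below, takes its variance in part from all features tested.

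The LSU feature with most reads, ENSRNA049454747 on chromosome 6 (19962336 to 19963202, minus strand), had the largest averaged difference, 1.67 ± 0.60 on the log2 scale (limma adjusted p = 1.00). Its controls were at 26.7, 126, 18.8, 245 and 310 RPM, and its US libraries at 305, 337, 180, 693 and 123 RPM. In the controls it was lowest at 0 h and 48 h. Among members that reached 1 RPM it had the largest rise at 0 h, 11.4-fold (10.7 to 12.2), and was 9.57-fold higher in US at 48 h. At 4 w the US library was the lower one, with a log2 difference of -1.33.

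The SSU feature with most reads, ENSRNA049462930 on chromosome 0 (25221066 to 25222726, minus strand), was at 583, 770, 641, 467 and 639 RPM in the controls and at 2355, 1205, 772, 887 and 494 RPM in the US libraries. It was higher in US at the first 4 times and lower at 4 w, by 0.37 on the log2 scale. The next in reads, ENSRNA049463049 in the same locus, was at 155 RPM in control 0 h and 753 RPM in US 0 h, with the other controls between 190 and 335 RPM. The averaged differences of the pair were 0.70 ± 0.30 and 0.86 ± 0.33 (limma adjusted p = 1.00 for both).

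A further SSU feature, PGSC0003DMG400039021 on chromosome 1 (51060895 to 51064103, minus strand), was higher in US at all 5 times. Its controls were at 278, 104, 102, 57.3 and 169 RPM and its US libraries at 785, 145, 141, 113 and 226 RPM, so both 0 h libraries stood above the rest of their treatment. Its averaged difference was 0.77 ± 0.19 (limma unadjusted p = 0.00300, adjusted p = 1.00). Its SSU label is that of ENSRNA049457672, which it overlaps by 297 bases on the other strand. That feature had 861, 53, 560, 32 and 86 reads in the controls and 323, 55, 104, 119 and 87 in the US libraries, and so was lower in US at 0 h and 48 h. A neighbouring gene, PGSC0003DMG400038200 (51065414 to 51065809), which is annotated as a chloroplast ribosomal protein in the study's tables, took another course. That gene had 11, 462, 4, 1065 and 1328 reads in the controls and 1010, 236, 418, 545 and 1457 in the US libraries.

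Other SSU members among the smallest unadjusted p were ENSRNA049463991 (chromosome 3, averaged difference 0.76 ± 0.20), ENSRNA049455476 (chromosome 9, 0.90 ± 0.27) and ENSRNA049463926 (chromosome 3, 1.06 ± 0.32), each with a limma adjusted p of 1.00. ENSRNA049463991 was higher in US at all 5 times, from 63.2 against 110 RPM at 0 h to 23.1 against 27.3 RPM at 4 w. ENSRNA049455476 was at 20.5 to 39.2 RPM in the controls and at 30.0 to 82.9 RPM in US. Of the 32 members 6 were higher in US at all 5 times, 20 at 4 times, 3 at 3 and 3 at 2. The 2 members with an averaged difference below 0 were ENSRNA049463021 (SSU, -0.44 ± 0.40) and ENSRNA049464469 (5.8S, -0.65 ± 0.79).

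**Figure D3:**
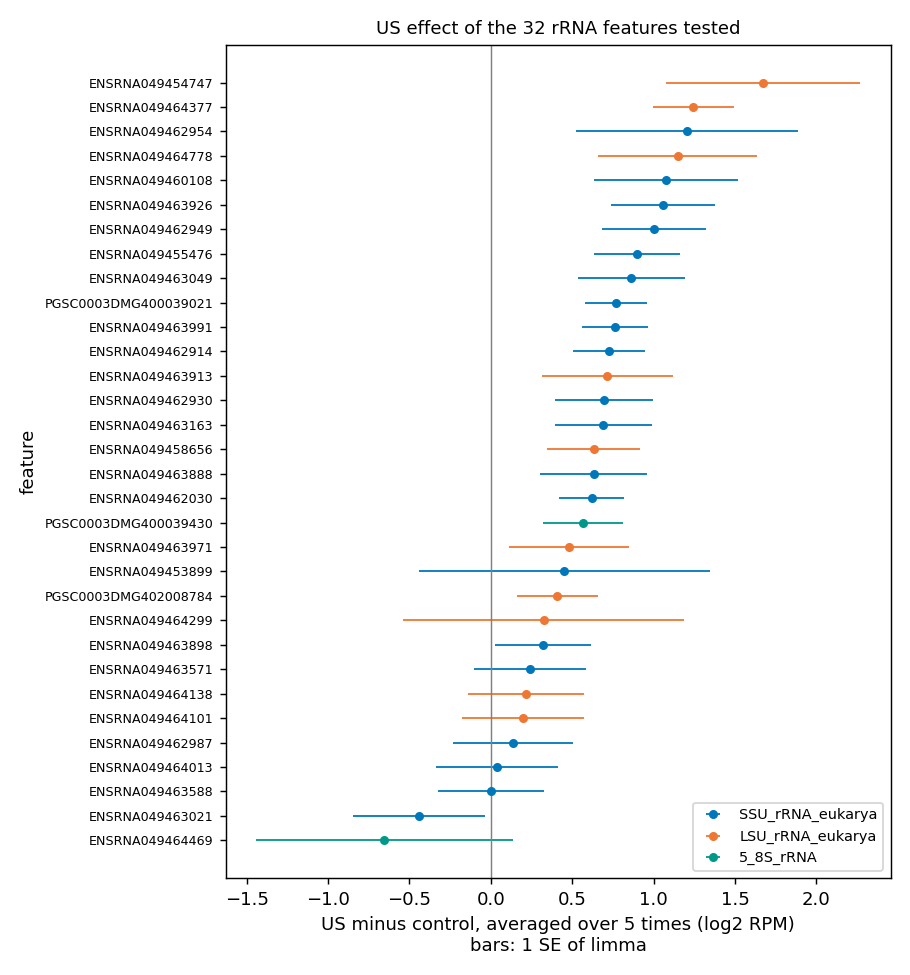
Points give the US minus control difference averaged over the 5 times (log2 RPM) for the 32 rRNA features tested, coloured by class, with bars of 1 SE from limma. 30 points lie to the right of 0, and no feature passed the adjusted threshold.

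Change over time was tested in the same fit, with 2 libraries per time. Of the 32 members 18 passed at a limma adjusted p of 0.05, against 41.1% of all features tested, and they were 11 SSU, 6 LSU and 1 5.8S. Without the 0 h pair 0 of 32 passed, against 8.94% of all features. At an unadjusted p under 0.05 stood 6 of the 32, against 6180 of the 20494 features tested, which is a larger share. The smallest p were those of ENSRNA049462030 (SSU, chromosome 1, 29245042 to 29245621, limma adjusted p = 0.00243) and PGSC0003DMG400039021 (limma adjusted p = 0.00245). ENSRNA049462030 was at 37.7, 7.52, 8.88, 6.57 and 14.7 RPM in the controls and at 65.8, 13.7, 13.7, 10.3 and 16.2 RPM in US. Both treatments were highest at 0 h.

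The remaining members with the smallest p for time were in the LSU and 5.8S classes. ENSRNA049464377 (limma adjusted p = 0.00640) was highest at 0 h and lowest at 4 w in both treatments. ENSRNA049463971 (LSU, chromosome 3, 12579745 to 12581165, limma adjusted p = 0.00686) was at 89.2, 17.9, 123, 9.39 and 6.04 RPM in the controls and at 104, 40.5, 48.3, 18.5 and 15.7 RPM in US. Its control 48 h level was the highest of its 10. PGSC0003DMG400039430 (5.8S, limma adjusted p = 0.00975) was at 141, 46.3, 78.5, 32.6 and 29.4 RPM in the controls and at 213, 109, 60.4, 73.7 and 34.0 RPM in US.

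At single times, a member was called higher or lower where one library reached 1 RPM and differed from the other by 2 or more on the log2 scale (4-fold). At 0 h, 54 members reached that level. Of these 5 were higher in US, against 1.7% of all features at that level, and 14 were lower, against 2.06%, together 35.2% against 3.75%. The balance of directions at 0 h depended on the thresholds, with 19 higher and 18 lower at a log2 difference of 1 or more, and 5 higher and 6 lower at a minimum of 4 RPM. Shares of all features under these other thresholds are not given here. A member that reached 1 RPM in one library only tends to be called by construction. At 24 h 6 of 39 members were higher (all features, 1.4%) and 2 lower (1.81%), against 3.21% in either direction. At 48 h 4 of 49 were higher (1.39%) and 17 lower (2.8%), against 4.19% in either direction. At 1 w 3 of 32 were higher (0.562%) and 0 lower (1.17%), against 1.73% in either direction. At 4 w 3 of 32 were higher (2.39%) and 0 lower (3.03%), against 5.42% in either direction. These calls have no replicate check, and the steps between adjacent times within a treatment give their scale. Within the controls, 1 of 54 was higher and 28 lower at 24 h than at 0 h (16.0% of all features in either direction), 18 of 48 were higher and 3 lower at 48 h than at 24 h (4.93%), and 1 of 47 was higher and 21 lower at 1 w than at 48 h (8.99%). From control 1 w to control 4 w it was 0 of 29 (7.57%). Within US, 1 of 43 was higher and 10 lower at 24 h than at 0 h (19.9%), 4 of 40 higher and 6 lower at 48 h than at 24 h (8.68%), 1 of 35 higher and 3 lower at 1 w than at 48 h (5.15%), and 0 of 34 higher and 4 lower at 4 w than at 1 w (15.7%). The 8 steps between adjacent times called a median of 10.5 members, and the 5 comparisons of US with control 3 to 21. The comparisons at 0 h and 48 h use the same control libraries as the steps around them.

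By class, 7 of the 21 LSU members at the minimum level at 0 h were lower in US, 4 of 5 5.8S, 2 of 27 SSU and 1 of 1 5S, and the 5 higher ones were 3 LSU and 2 SSU. At 48 h 8 of 20 LSU, 5 of 6 5.8S and 4 of 23 SSU members were lower. The difference between classes was not tested. At both times 9 members were lower, which is 64.3% of the 0 h list and 52.9% of the 48 h list. Over all features 63 were lower at both, 14.4% and 10.3% of the corresponding lists. Some of the 9 reached 1 RPM in control 0 h and control 48 h only, such as ENSRNA049463513, with 239 and 268 reads there and 0 to 10 elsewhere. Such members enter both lists through those libraries alone, so the overlap is no separate evidence. It was not tested. In sign alone, the members at the minimum level that were higher in US numbered 30 of 54 at 0 h (51.4% of all features), 37 of 39 at 24 h (45.1%), 21 of 49 at 48 h (45.1%), 32 of 32 at 1 w (51.0%) and 15 of 32 at 4 w (51.4%).

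At 0 h the 5.8S feature ENSRNA049463687 on chromosome 2 (2124822 to 2124977, minus strand) was lower in US by more than any other member. It had 7812, 17, 131, 5 and 15 reads in the controls and 14, 309, 7, 19 and 3 reads in the US libraries. Control 0 h was 601-fold (358 to 1100) above US 0 h, whereas US 24 h was 21.2-fold (13.0 to 36.9) above control 24 h. Outside control 0 h its level stayed at or below 7.85 RPM. The SSU feature ENSRNA049463571, which lies 219 bases away on the same strand, had 3891 reads in control 0 h and 4372 in US 0 h. Per kb, the level of the 5.8S feature was 23.3 times that of its SSU neighbour in control 0 h and 0.0371 times in US 0 h, with a median of 0.174 over the 10 libraries. Such a ratio is taken within 1 library and is not touched by the library total.

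Other 5.8S features next to an SSU feature were followed in the same way. ENSRNA049463248 (5.8S, chromosome 0, 25219204 to 25219359) had 704, 43, 598, 2 and 10 reads in the controls and 99, 22, 40, 23 and 4 in US, and its ratio to the SSU feature ENSRNA049463049, 227 bases away, was 0.594 in control 0 h, 0.366 in control 48 h and at most 0.0159 in the other libraries. ENSRNA049464469 had 1861, 215, 1123, 116 and 177 reads in the controls and 213, 859, 153, 338 and 87 in US, with ratios to ENSRNA049463898 from 0.834 (US 0 h) to 11.8 (control 0 h). The longer PGSC0003DMG400039430, which overlaps it, kept a narrower range of ratios to the same neighbour, 3.74 to 7.93. ENSRNA049464499 (5.8S, chromosome 3, 12522070 to 12522225) had 199 reads in control 48 h and 0 in each of the other 9 libraries.

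**Figure D4:**
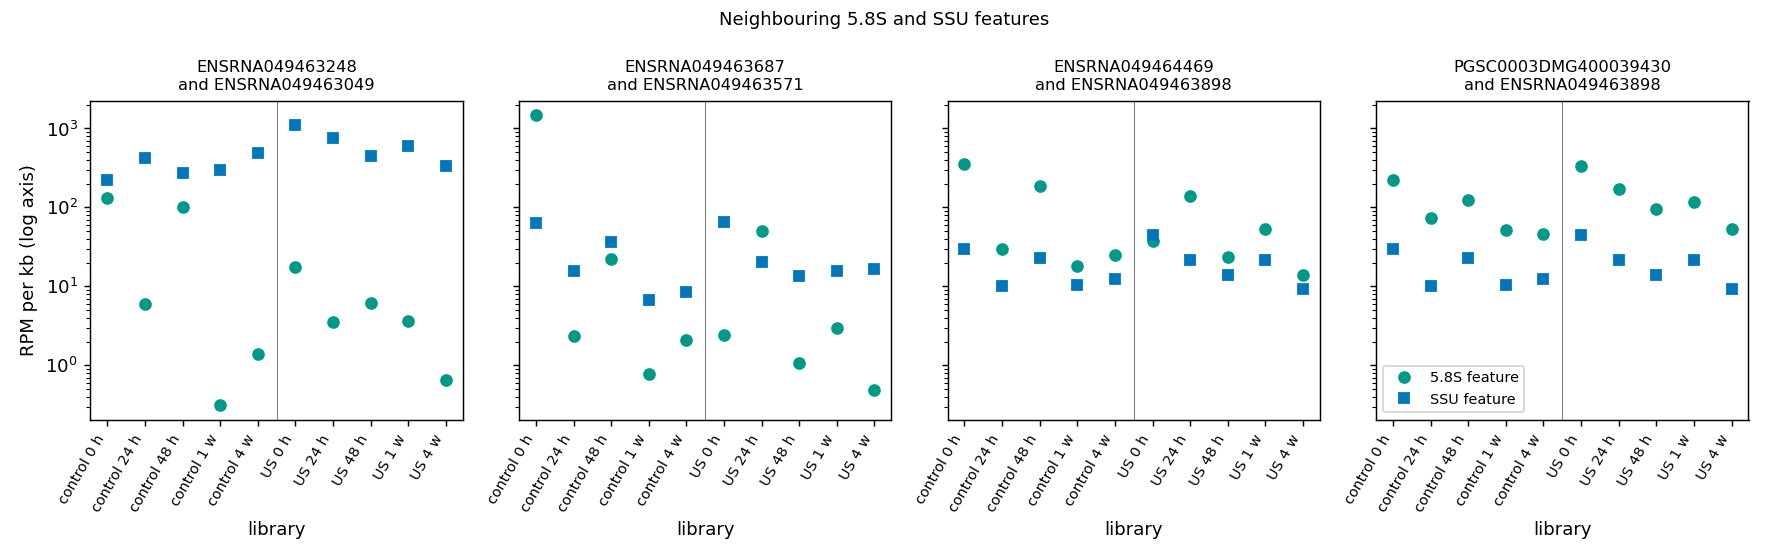
Each panel gives RPM per kb on a log axis in the 10 libraries for a 5.8S feature (circles) and its SSU neighbour (squares), with controls to the left of the line. In the first 3 panels the 5.8S level is highest in control 0 h, and in the panel on the right the ratio of both features stays between 3.74 and 7.93.

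Members with many reads and members with few reads peaked in different libraries. Of the 19 members with at least 10000 reads 17 had their highest level in US 0 h, against 14.8% of all features of that depth, and 0 in control 0 h (10.7%). Of the 15 members with 1000 to 9999 reads 6 were highest in US 0 h (13.0% of all features) and 6 in control 0 h (10.7%). Of the 21 with 100 to 999 reads 12 were highest in control 0 h (11.97%), and of the 50 with 1 to 99 reads 32 were (14.6%). The reads that set these depths include those of the highest library.

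A further group, noticed in the values and then counted, had control 0 h and control 48 h as its 2 highest libraries. Among the 45 members with at least 100 reads in the other 8 libraries it comprised 6 (13.3%), against 1.97% of all features with as many reads there, and these were 3 LSU, 2 5.8S and 1 SSU members. Further members reached 100 reads only through these 2 libraries and are given as values. The LSU features ENSRNA049464063 and ENSRNA049463513 had 107 and 60, and 239 and 268 reads in these libraries. In each of the others they had 0 to 2 and 0 to 10 reads. The adjoining LSU features ENSRNA049464051 (156 and 140 reads) and ENSRNA049463977 (123 and 189 reads) on chromosome 3 had at most 21 reads elsewhere. Among these further members the contrast was weaker in the LSU features ENSRNA049464324 (119 and 50 reads), with 49 in US 48 h, and ENSRNA049463318 (39 and 27 reads), with 15 in US 0 h. Beside this, control 0 h had the lowest total of the 10 libraries, 33850938 reads, and control 48 h had 38049313, between US 0 h with 36468362 and US 24 h with 39360788. The part of depth in this pattern was not tested.

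**Figure D5:**
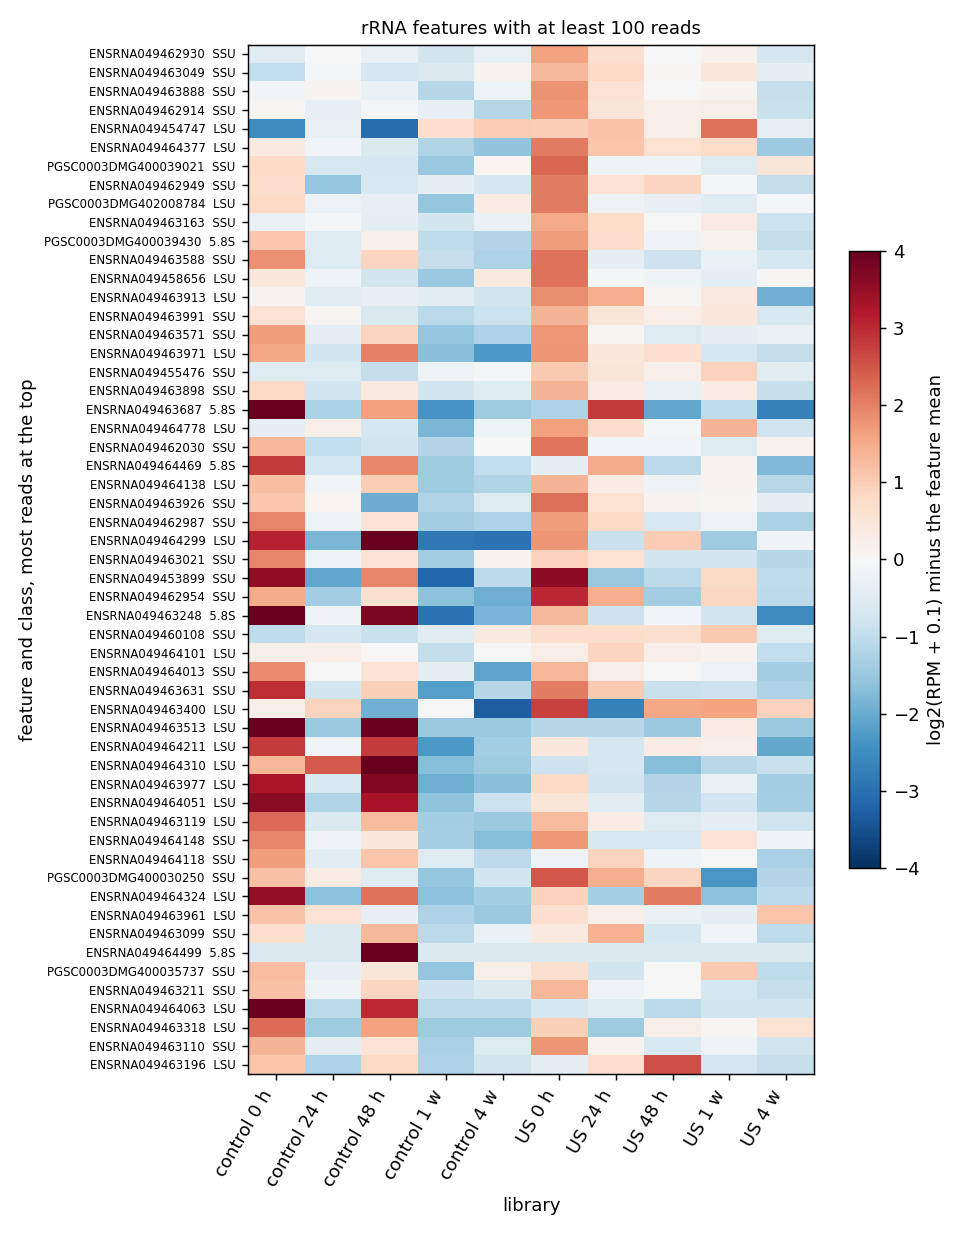
Colours give log2(RPM + 0.1) minus the feature's mean over 10 libraries for the 55 rRNA features with at least 100 reads, in order of reads, and end at 4 in either direction. The upper rows are reddest in US 0 h, and many lower rows are reddest in control 0 h and control 48 h.

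Some LSU members with few reads differed most at the later comparisons. ENSRNA049463400 (chromosome 0, 20194753 to 20195021) had 35, 78, 6, 36 and 0 reads in the controls and 233, 2, 113, 113 and 69 in US. Among members that reached 1 RPM it had the largest fall at 24 h, 33.4-fold (8.95 to 281). It also had the largest rise among them at 48 h, 17.3-fold, and at 4 w, 26.7-fold against the floor of 3 reads. The exact lower limit of the 4 w ratio was 21.2-fold. ENSRNA049464310 (chromosome 3, 12416558 to 12416987) had 279 reads in control 48 h and 24, 77, 0 and 1 reads in the other controls. In US 48 h it had 0 reads, 101-fold lower against the floor of 3 reads, with an exact lower limit of 81.6-fold. ENSRNA049463177 (chromosome 0, 20205961 to 20206576) had 0 reads in control 24 h and 40 in US 24 h. Against the floor of 3 reads it was 15.5-fold higher in US, with an exact lower limit of 12.1-fold. At 0 h it had 1 control read and 36 US reads, with US at 0.987 RPM. The SSU feature ENSRNA049453899 (chromosome 4, 33078102 to 33078553) had the largest rise at 1 w among members that reached 1 RPM, from 6 control reads to 147 US reads, 24.6-fold (11.0 to 68.1).

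A pair of features labelled LSU on chromosome 11, PGSC0003DMG402008784 (28535492 to 28536104, plus strand) and ENSRNA049458656 (28535060 to 28535891, minus strand), share 400 bases on opposite strands. The LSU label of the first is that of the second, and the first held 13.4% of the LSU class reads. The first was at 153, 74.0, 69.0, 29.8 and 107 RPM in the controls and at 365, 75.8, 69.6, 62.9 and 85.0 RPM in US. The second was at 82.1, 54.6, 37.3, 21.9 and 81.2 RPM in the controls and at 277, 58.2, 54.1, 47.7 and 63.7 RPM in US. Both were highest in US 0 h and lowest in control 1 w. The sources used here do not give whether the counting used strand, so that the reads of the pair cannot be told apart. A neighbouring gene that is not labelled rRNA, PGSC0003DMG401008784 (28536351 to 28539069, minus strand), was also highest in US 0 h and lowest in control 1 w. That gene had 6932, 4176, 3929, 1346 and 5350 reads in the controls and 15174, 3306, 3776, 2881 and 3591 in US.

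Features for RNAs that process or modify rRNA were few and low. By label, 37 small nucleolar RNAs, RNase MRP RNAs and similar RNAs were found, which guide modification or cut the precursor. Reads were found for 29 of them, 2 were tested, and 0 passed for US or for time in limma (background 0.0% and 41.1%). For US 1 of the 2 stood at an unadjusted p under 0.05, against 2.81% of all features. Their summed level was 17.4, 18.5, 26.8, 26.9 and 17.5 RPM in the controls and 21.7, 19.9, 22.2, 30.0 and 28.1 RPM in US, so the ranges overlapped. Most of that sum came from PGSC0003DMG400000310, a gene with 13.1 RPM in control 0 h and 20.9 RPM in US 4 w, which carries the label of an overlapping small nucleolar RNA, ENSRNA049455246, that had 0 reads. This gene was 1 of the 2 tested. The other 36 summed to 4.28, 5.69, 7.10, 7.70 and 3.77 RPM in the controls and to 6.17, 7.77, 6.004, 9.65 and 7.20 RPM in US. At 4 w 1 of the 3 that reached 1 RPM was 4-fold or more higher in US, against 2.39% of all features. Of 48 features labelled Plant_U3, a small nucleolar RNA needed for cutting the SSU precursor, 22 had reads, 2 were tested, 0 passed for US and 1 for time.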

How the data were processed

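Deposited values were log2 RPM per feature in 10 libraries. Per the labels and methods, the authors captured mRNA on oligo(dT) beads, made stranded libraries, trimmed with Trim Galore 0.5.0, aligned with HISAT2 2.1.0 to SolTub 3.0, counted uniquely aligned reads (mapping quality of at least 60) in exons with SeqMonk and scaled by library total. A feature without reads carried the value of 0.9 reads, from which totals and whole reads were recovered (99.98% of values whole within 0.1). Reads in features summed to 1.71 to 1.77 times the total. No sequence is shown, since no genome of the build was used.

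The fit with limma 3.58.1 (R 4.3.3) used the log2 values with trend and had time and treatment as terms, on the 20494 features with a mean of at least 0, with Benjamini-Hochberg adjustment over all of them. A check of the code on simulated counts used US changes of 4-fold and more and no change over time. That check does not bear on smaller differences in these data. Levels between features were compared per kb. Named members were, per class, the 2 highest per kb and those with 5% of the class reads (at most 5), the largest rise and fall at each time past the rule of size, and the 5 smallest p for US and for time. Others were named after their values were seen. Members and lists were chosen with earlier results of these data known, and Plant_U3, the sum without the PGSC gene and the depth filter on 8 libraries were added after seeing the data. Of 10 members the label belongs to an overlapping feature, 1 further rRNA feature carries the label of another gene, and 166 non-coding features carry such labels, so their class was not analysed here. Alternatives covered thresholds, scaling, overlaps, pseudocount, voom and each pair left out.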

Additional observations from a re-analysis of the deposited data

Results flagged for a closer look

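In 7 members US and control differed past the rule of size in opposite directions at different times. With 1 library per group the difference between times was not tested. Values are US minus control on the log2 scale.

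In the 5.8S class, ENSRNA049463687 was at -9.23 at 0 h, 4.41 at 24 h and -4.34 at 48 h, and ENSRNA049464469 at -3.23, 2.22 and -2.99 at the same times. In both, US was the lower library at 0 h and 48 h and the higher one at 24 h.

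In the SSU class, ENSRNA049462954 was at 2.96 at 24 h, -2.14 at 48 h and 2.63 at 1 w. ENSRNA049463099 was at 2.38 at 24 h and -2.41 at 48 h. ENSRNA049453899 was at -3.11 at 48 h and 4.62 at 1 w. All 3 were lower in US at 48 h.

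In the LSU class, ENSRNA049464299 was at -3.29 at 48 h and 3.39 at 4 w, and ENSRNA049463400 at 2.63 at 0 h, -5.06 at 24 h, 4.12 at 48 h and 6.48 at 4 w. The last value is set against a control without reads and depends on the value of 0.9 reads given to it.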

How the results depend on the processing

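The number of members called at single times followed the threshold. Shares of all features are given above for the main rule only, so the counts at other thresholds cannot be set against the whole table. In order of time it was 19, 8, 21, 3 and 3, and with a log2 difference of at least 1 it was 37, 20, 32, 21 and 8 (19, 18, 8, 21 and 5 of them higher in US). With a minimum of 4 RPM it was 11, 4 and 12 up to 48 h and 0 at 4 w. With 0.25 RPM it was 7 at 1 w and 6 at 4 w, and without any minimum it was 31 at 0 h and 37 at 48 h, then 15 (1 w) and 9 (4 w). The median count between adjacent times was 10.5, and 24 at a log2 difference of 1, 6.5 at 4 RPM and 19 with no minimum. In limma, 0 members passed for US under every alternative run. For time, 18 passed, against 41.1% of all features. Leaving out a pair gave 0 (without 0 h, 8.94% of all features) to 21 (44.3% without 24 h and 43% without 48 h).

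The summed level of all rRNA kept its direction at every time under the alternatives run. Its log2 difference of 1.41 at 0 h was 1.25 without the highest feature, 1.425 with overlapping features counted once, 1.47 scaled to reads in PGSC genes and 1.44 without PGSC features. At 24 h it was 0.81, with 0.87 without the highest feature and 0.83 without PGSC features. At 48 h it was 0.28, with 0.30 under both PGSC alternatives. At 1 w it was 1.10, with 1.16 without the highest feature and 1.12 under PGSC scaling. At 4 w it was -0.35, with -0.32 under PGSC scaling and -0.44 without PGSC features. The count of 6 members highest in control 0 h and 48 h was 12 with 100 reads over all 10 libraries, an alternative chosen after seeing the data, which also counts the reads of these 2 libraries. The 5.8S difference at 4 w, 0.11, became -0.89 without its highest feature and without PGSC features, which leave out the same feature. The averaged US difference of ENSRNA049453899, 0.45, became -0.00089 under voom and -0.59 without the 1 w pair, and leaving out pairs gave up to 1.34 (without 48 h). The cause was not tested. Of the 197 alternatives of 18 named members, 195 left the direction of the averaged US difference as it was. The call could not change, since no feature of the table passed for US under any of them. Changing the filter or dropping the time block leaves the averaged difference unchanged by construction. Its size was not judged, and that of ENSRNA049464469 went from -0.65 to -0.0084 without the 0 h pair. Pairing by replicate number was not available with 1 library per group, and the pairing used was that of the 2 libraries of one time. The lack of replicates and the unique alignment to near-identical copies limit all values, and the 5S class lies near the floor of 3 reads.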
